A study of Caenorhabditis elegans with 4 samples.

Results

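The major sperm protein genes and 5 other gene families expressed during sperm formation in Caenorhabditis elegans were followed in a single-nucleus RNA-seq experiment on worms lacking nucleoside transporters. The members were all genes whose symbol is msp, ssp, ssq, nspd, msd or smz followed by a hyphen and a whole number, with no use of measured values. They number 69 of the 46926 features in the count matrices, namely 35 msp, 12 ssp, 4 ssq, 4 msd, 12 nspd and 2 smz genes. Whole day 1 adult worms, about 3000 for each condition, were homogenized, and nuclei were sorted by DNA stain and size before 10x 3′ sequencing. The N2 wild type on HT115 bacteria carrying the empty L4440 vector served as the control (ctrl). Mutants lacking ent-1 (ent-1KO) or ent-2 (ent-2KO) received those bacteria too. For ent-1KO;ent-2KD, HT115 bacteria producing ent-2 RNAi were fed to ent-1KO worms. Each condition is 1 library, so no test between conditions is possible, and the 95% intervals given in parentheses (exact Poisson for levels, Clopper-Pearson for shares and ratios) cover counting error only.

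Hermaphrodites make sperm in late larval life, store them in the spermatheca and then switch to making oocytes. Major sperm protein (MSP) is the building block of the filaments that let the amoeboid sperm crawl, and MSP released from sperm also acts as a signal that starts oocyte maturation and the contraction of the gonadal sheath. The msp genes are many near-identical copies, and ssp and msd genes encode small proteins with an MSP-type domain. The ssq genes belong to another sperm-specific class, nspd genes encode short nematode-specific peptides, and smz genes encode proteins with PDZ domains that are made during sperm meiosis. The mature sperm transcribes little, and most sperm proteins are made from RNA transcribed earlier, in spermatocytes.

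The libraries held 11666 to 14935 nucleus barcodes with 21009254 to 32714922 unique molecular identifiers (UMIs, 1 per captured transcript) and medians of 1414 to 1871 UMIs per barcode. Any 2 libraries shared 43 to 61 barcode sequences. Levels are given as CPM, the UMIs of a gene in the nuclei named per 1000000 UMIs of all genes there. Over all barcodes the targeted ent-1 was at 141 CPM in ctrl, 16.7 in ent-1KO, 142 in ent-2KO and 14.7 in ent-1KO;ent-2KD, and ent-2 at 25.4 CPM in ctrl, 24.2 in ent-1KO, 9.02 in ent-2KO and 18.1 in ent-1KO;ent-2KD, both ENT nucleoside transporters. After the removal of barcodes scored as likely doublets, 46662 nuclei were clustered with every family member left out of the clustering genes. Of the 32 clusters, 1 was called sperm-like, because 29 of 32 sperm markers outside the families were raised there. Among its leading genes were cylc-1, cylc-2 and spch-3, the last of which encodes a sperm chromatin protein.

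The sperm-like cluster held 775 nuclei. Of the nuclei kept they made up 0.681 (0.533–0.857) percent in ctrl, 1.31 (1.12–1.52) in ent-1KO, 1.18 (0.988–1.40) in ent-2KO and 3.40 (3.08–3.74) in ent-1KO;ent-2KD, which is 72, 172, 132 and 399 nuclei in that order. The share was highest in ent-1KO;ent-2KD, and its interval lay above those of the other libraries. Median depth of these nuclei was 1432 UMIs in ctrl, 1256 in ent-1KO, 1965 in ent-2KO and 2043 in ent-1KO;ent-2KD. In whole-body libraries a larger share of a class can come from more nuclei of that class or from fewer of another, and germline-like nuclei, the largest class, made up 55.9 percent in ctrl, 55.8 in ent-1KO, 54.6 in ent-2KO and 29.7 in ent-1KO;ent-2KD. Markers of other cells were also counted in the sperm-like nuclei. All 31 germline markers had a UMI there in each library, with a summed level of 6709 CPM in ctrl, 7371 in ent-1KO, 6096 in ent-2KO and 3964 in ent-1KO;ent-2KD. Of 29 intestine markers 24 in ctrl, 28 in ent-1KO, 25 in ent-2KO and 29 in ent-1KO;ent-2KD were seen, with a summed level of 7458 CPM in ctrl, 11907 in ent-1KO, 5257 in ent-2KO and 12706 in ent-1KO;ent-2KD. In intestine-like nuclei that sum was between 30759 and 33932 CPM, and in the germline-like nuclei the germline sum was between 10892 and 14255 CPM. The part of these transcripts in the results below was not tested.

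The families filled a large share of what was counted in sperm-like nuclei. The 69 members together reached 41376 (40385–42384) CPM in ctrl, 41743 (41041–42454) in ent-1KO, 46292 (45568–47024) in ent-2KO and 36403 (36046–36762) in ent-1KO;ent-2KD. As a share of all UMIs this is 4.14 percent in ctrl, 4.17 in ent-1KO, 4.63 in ent-2KO and 3.64 in ent-1KO;ent-2KD. In the other nuclei the same genes reached 210.1 (204–217) CPM in ctrl, 279 (273–285) in ent-1KO, 286 (279.6–293) in ent-2KO and 574 (565–584) in ent-1KO;ent-2KD. The ratio of the level in sperm-like nuclei to that elsewhere was 197 in ctrl, 149.6 in ent-1KO, 162 in ent-2KO and 63.4 in ent-1KO;ent-2KD. Of all member UMIs of the nuclei kept, sperm-like nuclei held 63.2 percent in ctrl, 62.9 in ent-1KO, 70.4 in ent-2KO and 72.6 in ent-1KO;ent-2KD.

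All 69 members were found in the WBcel235 annotation by gene ID. Chromosome IV carries 38 of them, chromosome II 17, chromosome I 9, chromosome V 3 and chromosome III 2, and none is on the X chromosome. When members of a chromosome at most 100 kb apart are joined, 21 loci result, and 6 loci with 3 or more members hold 51 of the genes. The densest, chrIV:4994371-5316906, has 16 members of 4 families (10 msp, ssp-9, ssp-11, ssq-2, ssq-4, nspd-3 and nspd-6). A second on the same chromosome, chrIV:9689015-9896136, has 12, and the largest on chromosome II, chrII:4785898-5013275, has 8 msp genes with nspd-4 and nspd-5. These 3 loci gave 27.1, 17.1 and 21.8 percent of the member UMIs in sperm-like nuclei, and the 6 loci together 78.5 percent.

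The gene models set a limit on what could be counted. The annotated lengths of 58 of the 69 members are multiples of 3, and the median msp model is 384 bases long, which is the coding length with no UTR. The assay tags the 3′ ends of transcripts, so tags beyond the end of such a model may have been missed, and reads that fit several near-identical copies are not counted for any. Levels of single msp genes are therefore uncertain, while a family's sum is less affected by how reads divide among the copies that were told apart. The annotation calls 6 members pseudogenes, namely msp-37, msp-42, msp-52, msp-71, nspd-11 and nspd-12, and the others protein-coding. Overlap with another gene concerns 7 members. The gene msd-2, which had no UMI, lies wholly within F44D12.16 on the same strand, and F44D12.16 had 2473 UMIs in sperm-like nuclei. Likewise msp-37, at 0, lies wholly within dhs-12 on the same strand.

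In sperm-like nuclei 59 members had 50 or more UMIs over the libraries, 5 had between 1 and 49, and 5 had none. No UMI was counted in any barcode for msd-2, msp-37 and nspd-12. The sparse members were msp-52 (14 UMIs), msp-58 (4), nspd-11 (3), ssp-37 (2) and msd-1 (1). The plot of members in sperm-like nuclei shows that, for most members, the levels within a family spread over more than those of 1 member across libraries.

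**Figure D1:**
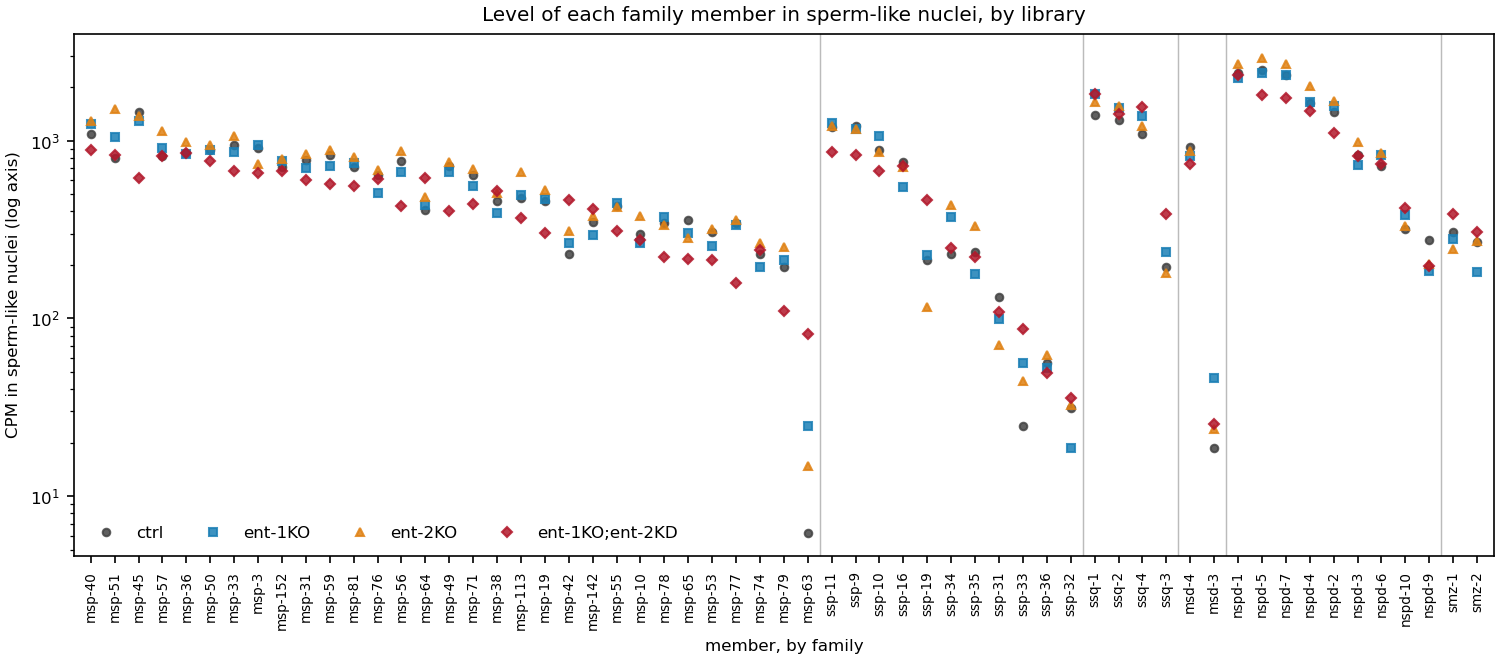
Level of each of the 59 members with 50 or more UMIs in sperm-like nuclei, in CPM on a log axis, with 1 point per library (circle ctrl, square ent-1KO, triangle ent-2KO, diamond ent-1KO;ent-2KD). Members are ordered by family and level. The 4 libraries lie close together for most members, and msp-63 at the end of the msp family spans 6.25 to 82.2 CPM.

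The msp genes gave the largest family sum, 18445 (17786–19123) CPM in ctrl, 18097 (17636–18567) in ent-1KO, 20866 (20381–21359.6) in ent-2KO and 14879.6 (14652–15109.9) in ent-1KO;ent-2KD. The 31 msp genes with 50 or more UMIs ranged from 54.3 to 1032 CPM over the summed libraries, with a median of 536 CPM. The highest was msp-40 (chrII:4825414-4825797 in WBcel235, plus strand), at 1093 (937–1268) CPM in ctrl, 1236 (1118–1364) in ent-1KO, 1282 (1164–1408) in ent-2KO and 886 (831–943) in ent-1KO;ent-2KD. It had a UMI in 59.0 percent of sperm-like nuclei. On chromosome IV, msp-51 (chrIV:5294957-5295340, minus strand) was at 793 (661–944) CPM in ctrl, 1050.3 (941–1168) in ent-1KO, 1509.9 (1382–1647) in ent-2KO and 826 (773–881) in ent-1KO;ent-2KD. It was highest in ent-2KO, where its interval did not meet those of the other libraries. The gene msp-45 (chrII:5156700-5157083, minus strand) had 1455 (1274–1655) CPM in ctrl, 1283 (1162–1412) in ent-1KO, 1379 (1257–1511) in ent-2KO and 619 (573–668) in ent-1KO;ent-2KD. Here ent-1KO;ent-2KD was the low library, and the other 3 overlapped. For msp-57, msp-36 and msp-50 the levels in the libraries lay between 818 and 1133, 837 and 982, and 767 and 946 CPM.

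The small MSP-domain families were led by few genes. The ssp family summed to 4978 (4639–5336) CPM in ctrl, 5022 (4781–5273) in ent-1KO, 5031 (4795–5276) in ent-2KO and 4300.2 (4178–4425) in ent-1KO;ent-2KD. Its leaders ssp-11 (chrIV:4999485-4999814) and ssp-9 (chrIV:4994371-4994700), both in the densest locus, had nearly the same levels. The first was at 1199 (1036–1381) CPM in ctrl, 1249 (1129.7–1377) in ent-1KO, 1213 (1099–1337) in ent-2KO and 866 (811–923) in ent-1KO;ent-2KD, and the second at 1212 (1047–1395) CPM in ctrl, 1156 (1041–1279) in ent-1KO, 1157 (1045–1278) in ent-2KO and 826 (773–882) in ent-1KO;ent-2KD. Both were lowest in ent-1KO;ent-2KD. ssp-10 had 887 CPM in ctrl, 1066 in ent-1KO, 863 in ent-2KO and 675 in ent-1KO;ent-2KD, and ssp-16, on chromosome I, 756 CPM in ctrl, 551 in ent-1KO, 706 in ent-2KO and 719 in ent-1KO;ent-2KD. The msd family was carried by a single gene. It was msd-4 (chrIII:4868414-4868743, minus strand), at 918 (776–1079) CPM in ctrl, 821 (725–926) in ent-1KO, 875 (778–981) in ent-2KO and 742 (692–795) in ent-1KO;ent-2KD, and all 4 intervals overlapped. By contrast msd-3 had 18.7 CPM in ctrl, 46.5 in ent-1KO, 23.7 in ent-2KO and 25.6 in ent-1KO;ent-2KD, msd-1 a single UMI, in ent-2KO, and msd-2 none.

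The ssq genes were among the most abundant single members. The family summed to 3985 (3682–4307) CPM in ctrl, 4960.4 (4720.3–5209) in ent-1KO, 4598 (4372–4833) in ent-2KO and 5174 (5040.3–5311) in ent-1KO;ent-2KD from 4 genes. ssq-1 (chrIV:9852550-9853609, plus strand) was at 1387 (1210.3–1582) CPM in ctrl, 1816 (1672–1969) in ent-1KO, 1649 (1515–1792) in ent-2KO and 1835 (1755–1917) in ent-1KO;ent-2KD, lowest in ctrl. ssq-2 and ssq-4, in the densest locus, had 1312 CPM in ctrl, 1531 in ent-1KO, 1554 in ent-2KO and 1405 in ent-1KO;ent-2KD and 1093 CPM in ctrl, 1379 in ent-1KO, 1213 in ent-2KO and 1549 in ent-1KO;ent-2KD. The fourth, ssq-3, which stands alone on chromosome IV (chrIV:7111604-7112885), was lower, at 194 (132–275) CPM in ctrl, 235 (186–295) in ent-1KO, 181 (138–232) in ent-2KO and 385 (349–424) in ent-1KO;ent-2KD. In all 4 genes ctrl or ent-2KO was the lowest library, and the sum was highest in ent-1KO;ent-2KD. The nspd peptides summed to 12455 (11914–13014) CPM in ctrl, 12334 (11954–12724) in ent-1KO, 14376 (13974–14786) in ent-2KO and 10586 (10394–10780.3) in ent-1KO;ent-2KD and held the 3 most abundant members of all families. nspd-1, on chromosome I, was at 2405 (2171–2657) CPM in ctrl, 2243 (2083–2413) in ent-1KO, 2688 (2515–2868) in ent-2KO and 2330.5 (2241–2423) in ent-1KO;ent-2KD. nspd-5 (chrII:4860145-4860360) had 2479.8 (2242–2736) CPM in ctrl, 2407 (2241–2583) in ent-1KO, 2931 (2751–3119) in ent-2KO and 1795 (1717–1876) in ent-1KO;ent-2KD, nspd-7 2349 CPM in ctrl, 2352 in ent-1KO, 2699.5 in ent-2KO and 1739 in ent-1KO;ent-2KD and nspd-4 1637 CPM in ctrl, 1642 in ent-1KO, 2017 in ent-2KO and 1458 in ent-1KO;ent-2KD. For nspd-5, nspd-7 and nspd-4 the order of libraries was the same at both ends, highest in ent-2KO and lowest in ent-1KO;ent-2KD. The PDZ-domain genes were low, smz-1 at 306 (226–405) CPM in ctrl, 279 (224–343) in ent-1KO, 246 (196–305) in ent-2KO and 388 (352–427) in ent-1KO;ent-2KD and smz-2 at 269 (194–362) CPM in ctrl, 183 (139–236) in ent-1KO, 273 (220.0–335) in ent-2KO and 307 (275–341) in ent-1KO;ent-2KD. Both were highest in ent-1KO;ent-2KD, with intervals that overlapped ctrl.

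Expressed per nucleus, the families were unevenly spread. A sperm-like nucleus held a median of 23.5 member UMIs in ctrl, 19 in ent-1KO, 42 in ent-2KO and 63 in ent-1KO;ent-2KD, and the upper quartile was 91.2 in ctrl, 61.8 in ent-1KO, 138 in ent-2KO and 144 in ent-1KO;ent-2KD. The highest nucleus of each library held 960 in ctrl, 949 in ent-1KO, 1153 in ent-2KO and 743 in ent-1KO;ent-2KD. At the other end, the share of sperm-like nuclei with no member UMI was 6.94 percent in ctrl, 4.07 in ent-1KO, 0.758 in ent-2KO and 1.00 in ent-1KO;ent-2KD. The median number of different members seen in a nucleus was 16 in ctrl, 14 in ent-1KO, 23.5 in ent-2KO and 28 in ent-1KO;ent-2KD.

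A finer clustering (resolution 1.6 in place of 0.8) split the 775 sperm-like nuclei into a shallow sub-group, led by msrp-2, nsph-4.1 and gsp-3, the last a sperm-specific protein phosphatase, and a deep sub-group, led by E03H12.5, linc-82 and cylc-1. The split was made without the family members, and it is used here as a description. Median depth in the shallow sub-group was 981 UMIs in ctrl, 979 in ent-1KO, 992 in ent-2KO and 828 in ent-1KO;ent-2KD. In the deep one it was 3279.5 UMIs in ctrl, 2964 in ent-1KO, 2984 in ent-2KO and 2905 in ent-1KO;ent-2KD. Of sperm-like nuclei the deep sub-group made up 36.1 (25.1–48.3) percent in ctrl, 23.8 (17.7–30.9) in ent-1KO, 42.4 (33.9–51.3) in ent-2KO and 55.4 (50.4–60.3) in ent-1KO;ent-2KD. It was the larger part in ent-1KO;ent-2KD alone, where its interval lay above those of ctrl and ent-1KO and met that of ent-2KO. Depth and the level of the members moved together here, and their part in each other was not tested.

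The members were much more abundant in the deep sub-group. Of the UMIs of the deep sub-group the members together took 6.102 percent in ctrl, 7.66 in ent-1KO, 6.29 in ent-2KO and 4.33 in ent-1KO;ent-2KD. Of those of the shallow sub-group they took 1.24 percent in ctrl, 1.51 in ent-1KO, 1.87 in ent-2KO and 1.93 in ent-1KO;ent-2KD. The median number of different members in a deep nucleus was 38 in ctrl, 42 in ent-1KO, 43 in ent-2KO and 40 in ent-1KO;ent-2KD, and in a shallow one 7 in ctrl, 9 in ent-1KO, 12 in ent-2KO and 8 in ent-1KO;ent-2KD. Of the 59 members with 50 or more UMIs in both sub-groups together, 58 had a higher CPM in the deep one over the summed libraries. So did 2167 of all 6785 genes with as many UMIs, and 29 of 31 sperm markers outside the families. In each of the 4 libraries 52 of the members were higher, a count for which no share over all genes was taken. The median log2 difference (deep to shallow) was 1.31, against −0.66 over all 6785 genes with as many UMIs and 1.98 over 31 sperm markers outside the families. By family the median was 2.50 for ssq, 1.88 for nspd, 1.68 for smz, 1.39 for ssp, 1.04 for msp and 0.51 for the 2 msd genes. The makeup of the member UMIs therefore differed. The msp genes gave 56.2 percent of them in the shallow and 39.9 percent in the deep sub-group, and the nspd genes 21.6 and 31.2 percent.

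**Figure D2:**
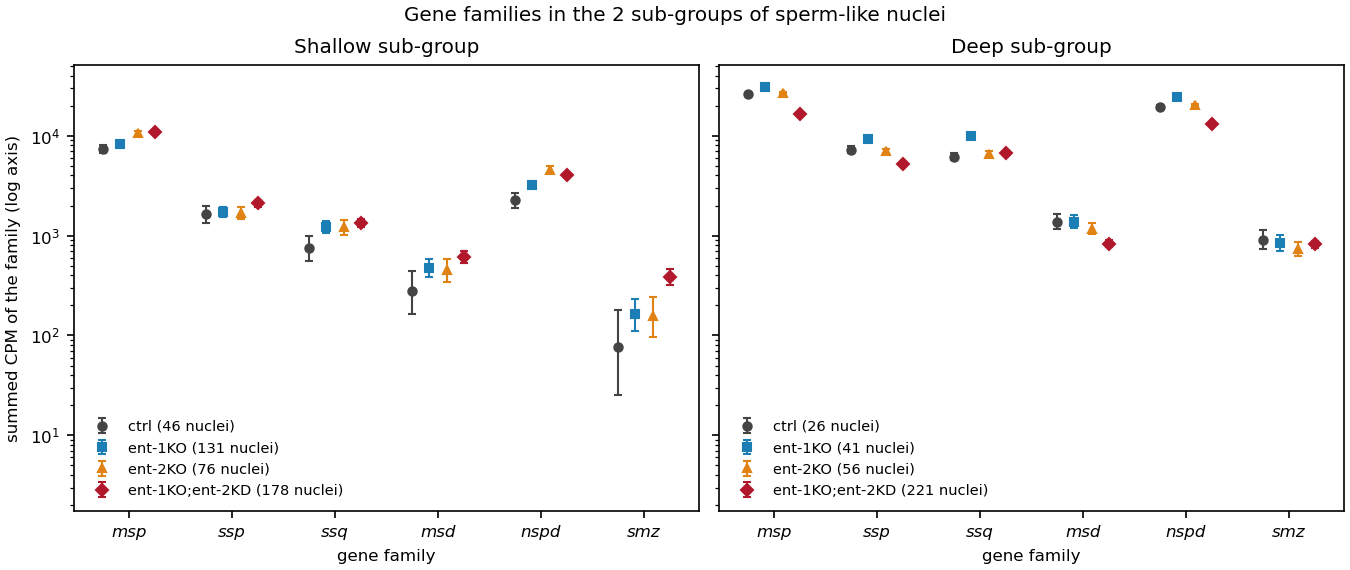
Summed level of each gene family, in CPM on a log axis, in the shallow (left) and deep (right) sub-group of sperm-like nuclei. Points are libraries and bars are exact 95% Poisson intervals, which cover counting error only. In the shallow sub-group ctrl is the lowest library in every family, and in the deep sub-group ent-1KO;ent-2KD is the lowest for msp, ssp, msd and nspd.

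The msp family itself was not uniform between the sub-groups. The genes msp-74, msp-71 and msp-42 stood apart, and were picked out after their values were seen. They had 12, 31 and 38 UMIs in the shallow and 443, 964 and 694 UMIs in the deep sub-group. Their log2 differences were 4.31 (3.55 to 5.33), 4.10 (3.61 to 4.69) and 3.34 (2.88 to 3.87). All 3 lie on chromosome II. msp-71 and msp-42 are annotated as pseudogenes and msp-74 as protein-coding, and the models of msp-74, msp-71 and msp-42, at 234, 402 and 362 bases, differ from the 384 bases of most msp genes. Near the other end were the 3 msp genes of chrII:5797065-5810330 and, on chromosome IV, msp-79 (0.33, −0.03 to 0.70). msp-63 was the only member with a lower CPM in the deep sub-group, 48.1 against 65.4 (log2 difference −0.45, −1.03 to 0.15). msp-64 and msp-142 had differences of 0.22 (0.04 to 0.42) and 0.33 (0.10 to 0.57).

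Outside the sperm-like nuclei the families were present at a low level in every class of nuclei. In droplet data, RNA set free from broken cells is captured together with any nucleus, so a UMI alone does not show that a nucleus transcribed the gene. Over the 31 other clusters the members summed to between 144 and 1088 CPM, and in the sperm-like cluster to 39459 CPM. In germline-like nuclei the level was 168 (160.0–176) CPM in ctrl, 226 (219–233) in ent-1KO, 232 (224–241) in ent-2KO and 481 (465–497) in ent-1KO;ent-2KD. In body wall muscle-like nuclei, a tissue that makes no sperm, it was 171 (139–208) CPM in ctrl, 283 (249–319) in ent-1KO, 280.1 (245–319) in ent-2KO and 437 (413–462) in ent-1KO;ent-2KD, and in neuron-like nuclei 315 (263–376) CPM in ctrl, 584 (513–662) in ent-1KO, 410.4 (357–469.9) in ent-2KO and 1153 (1090.3–1218) in ent-1KO;ent-2KD. Germline-like nuclei were below neuron-like nuclei in each library. Whether cells on the way to sperm were counted among germline-like nuclei or in the sperm-like cluster was not tested. Against muscle, germline-like nuclei were lower in ent-1KO and ent-2KO, and in ctrl the intervals overlapped. The muscle sums include the pseudogene nspd-11, at 24.1 CPM in ctrl, 36.96 in ent-1KO and 22.1 in ent-2KO. In ctrl that is more than the gap between muscle and germline-like nuclei, so their order there depends on this locus. In ent-1KO and ent-2KO the level of nspd-11 is more than the distance between the 2 intervals. Their separation in these libraries therefore depends on this locus too. In ent-1KO;ent-2KD germline-like nuclei were at 481 CPM, above muscle. Whether germline-like nuclei transcribed the members was not tested. Clusters rich in ribosomal protein transcripts, with median depths of 929.5 to 1305 UMIs, had 528 CPM in ctrl, 809 in ent-1KO, 796 in ent-2KO and 1065 in ent-1KO;ent-2KD.

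**Figure D3:**
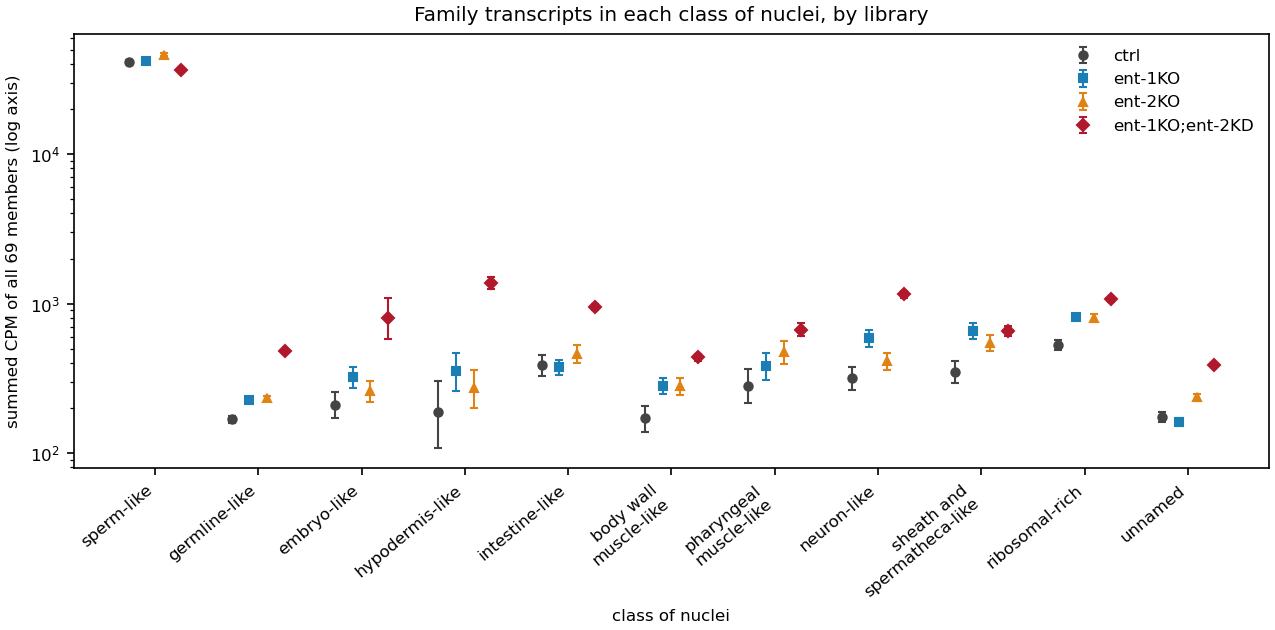
Summed level of all 69 members in each class of nuclei, in CPM on a log axis, by library, with exact 95% Poisson intervals that cover counting error only. The sperm-like class lies between 36403 and 46292 CPM, and every other class at or below 1377 CPM. In most classes ent-1KO;ent-2KD is the highest library.

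The share of nuclei with a member UMI depends on depth, so each nucleus was thinned to 500 UMIs, the fewest of any barcode, and none had to be left out. After thinning, the share of nuclei outside the sperm-like cluster with a member UMI was 11.03 (10.4–11.6) percent in ctrl, 15.4 (14.8–16.1) in ent-1KO, 14.7 (14.1–15.4) in ent-2KO and 24.9 (24.1–25.7) in ent-1KO;ent-2KD. Median depths before thinning were 1392 UMIs in ctrl, 1757 in ent-1KO, 1685 in ent-2KO and 1827 in ent-1KO;ent-2KD. Unthinned shares were 24.9 percent in ctrl, 36.8 in ent-1KO, 34.9 in ent-2KO and 55.6 in ent-1KO;ent-2KD. In body wall muscle-like nuclei alone the thinned share was 4.55 percent in ctrl, 13.03 in ent-1KO, 12.4 in ent-2KO and 21.3 in ent-1KO;ent-2KD, and in sperm-like nuclei 87.5 percent in ctrl, 87.2 in ent-1KO, 96.2 in ent-2KO and 96.0 in ent-1KO;ent-2KD. The share outside was highest in ent-1KO;ent-2KD, which also had the largest share of sperm-like nuclei. A small number of nuclei held part of the rest. Nuclei outside the sperm-like cluster with 10 or more member UMIs numbered 14 in ctrl, 36 in ent-1KO, 38 in ent-2KO and 143 in ent-1KO;ent-2KD, and of the member UMIs outside they carried 6.72 percent in ctrl, 9.31 in ent-1KO, 15.6 in ent-2KO and 29.7 in ent-1KO;ent-2KD. Among all others the members summed to 196 CPM in ctrl, 254 in ent-1KO, 244 in ent-2KO and 416 in ent-1KO;ent-2KD.

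The makeup of the member UMIs was set beside that in sperm-like nuclei, and the source of those outside was not tested. By family, the msp genes gave 58.0 percent of the member UMIs outside, nspd 19.4, ssp 11.7, ssq 7.21, msd 2.21 and smz 1.55 percent. In sperm-like nuclei the msp share was 42.5 and the nspd share 29.7 percent. The makeup outside was nearer to that of the shallow sub-group, where these shares were 56.2 and 21.6 percent. The msp genes gave the largest share in each class outside, and the shares varied between classes. The msp share was 60.2 percent in germline-like, 56.7 in intestine-like, 57.5 in neuron-like and 51.5 in body wall muscle-like nuclei. It was lowest in sheath and spermatheca-like nuclei, at 50.8 percent, and highest in embryo-like nuclei, at 62.5. The nspd share ran from 16.4 percent in ribosomal-rich to 26.05 in sheath and spermatheca-like nuclei. The ssq share ran from 5.99 percent in ribosomal-rich to 10.6 in hypodermis-like nuclei. Across the 61 members with 50 or more UMIs in all nuclei together, the UMI counts inside and outside had a Spearman's rho of 0.83, a description over genes that share libraries and depth. By library rho was 0.68 in ctrl, 0.75 in ent-1KO, 0.69 in ent-2KO and 0.84 in ent-1KO;ent-2KD.

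**Figure D4:**
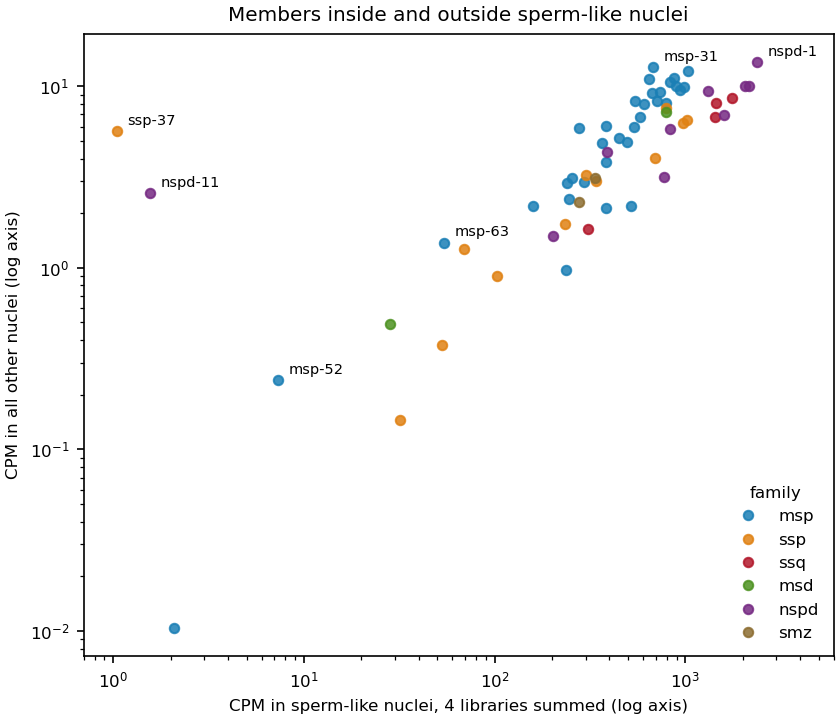
Level of each member in sperm-like nuclei (x axis) and in all other nuclei (y axis), in CPM over the 4 libraries summed, both on log axes, for members with a UMI in each. Colours give the family. Most members lie along 1 rising band, and ssp-37 and nspd-11 lie far above it, at 1.04 and 1.57 CPM inside and 5.64 and 2.59 CPM outside.

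Most UMIs of ssp-37 and nspd-11 lay outside sperm-like nuclei. ssp-37, on chromosome I, had 2 UMIs in sperm-like nuclei and 541 elsewhere. Of the latter, 235 lay in 1 ribosomal-rich cluster of 517 nuclei led by clec-223, col-135 and ttr-14, where it was at 223 CPM in ctrl, 249.7 in ent-1KO, 298 in ent-2KO and 266 in ent-1KO;ent-2KD, close to equal in the 4 libraries. That cluster was not given a cell type. In germline-like nuclei ssp-37 was at 1.87 (1.12–2.91) CPM in ctrl, 0.857 (0.469–1.44) in ent-1KO, 9.498 (7.87–11.4) in ent-2KO and 1.72 (0.914–2.93) in ent-1KO;ent-2KD. The ent-2KO library stood apart there, but not there alone. In neuron-like nuclei ssp-37 was at 2.52 CPM in ctrl and 19.5 in ent-2KO, on 1 and 10 UMIs, and in unnamed nuclei at 3.51 and 3.58 CPM. Over all nuclei outside the sperm-like cluster the log2 ratio of ent-2KO to ctrl was 1.40 (1.03 to 1.80). nspd-11, also on chromosome I, is annotated as a pseudogene of 136 bases, so its counts are those of a pseudogene locus. It had 3 UMIs in sperm-like nuclei and 248 elsewhere, 143 of them in body wall muscle-like nuclei. In the largest such cluster, of 1468 nuclei, it was at 34.7 CPM in ctrl, 48.2 in ent-1KO, 29.9 in ent-2KO and 35.9 in ent-1KO;ent-2KD. No annotated gene overlaps either of them.

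Apart from those, the members that took the largest part outside relative to inside were msp-63 and msp-78, with 1.52 (1.14 to 1.91) and 1.27 (1.09 to 1.44) on the log2 scale of their shares of member UMIs. The smallest part was that of msp-74, −1.11 (−1.45 to −0.79), nspd-6 and msp-71. msp-74 and msp-71 were also the members with the largest difference towards the deep sub-group. msp-31, a further gene with a high part outside (1.10), lies within aagr-2 on the same strand, a gene with 13061 UMIs outside the sperm-like nuclei. These genes were chosen for their values and are described without a test.

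Between libraries the summed level of the members differed little in the sperm-like cluster taken as a whole, as it was defined here. Each of the mutant libraries was set against the same ctrl library, as the log2 ratio of CPM with 0.5 UMIs added to each count, and a gene was called higher or lower at 2-fold or more where both libraries together had at least 50 UMIs. The summed ratio of all members was 0.01 (−0.03 to 0.06) in ent-1KO, 0.16 (0.12 to 0.20) in ent-2KO and −0.18 (−0.22 to −0.15) in ent-1KO;ent-2KD. In ent-1KO, 0 of 54 members were called higher and 0 lower, where 1.98% and 1.63% of the 2581 genes tested were. In ent-2KO, 0 of 53 were called in either direction, where 2.31% of all genes were higher and 1.29% lower. In ent-1KO;ent-2KD, 3 of 57 members were higher and 2 lower, against 10.3% and 10.8% of all 5493 genes. The size of the last summed ratio depended on which nuclei were taken. It was −0.027 when members were allowed among the clustering genes and −0.77 when nuclei were taken by sperm-specific markers. It was 1.67 when any 3 UMIs of sperm markers sufficed, a rule that also takes germline-like nuclei. The median member ratio was −0.02, 0.15 and −0.20, beside −0.07, −0.04 and −0.06 over all genes tested.

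The called members of ent-1KO;ent-2KD came from the msp and ssp families. msp-45 and msp-77 were lower, at −1.24 (−1.45 to −1.01) and −1.13 (−1.57 to −0.66). For msp-77 the levels were 344 (259–447) CPM in ctrl, 335 (274–404) in ent-1KO, 359 (298–429) in ent-2KO and 158 (135–183) in ent-1KO;ent-2KD, with ent-1KO;ent-2KD below the other 3 libraries and no overlap. msp-63 was higher, at 3.14 (1.20 to 9.04), from 1 UMI in ctrl, 8 in ent-1KO and 5 in ent-2KO to 90 in ent-1KO;ent-2KD. Its levels were 6.25 (0.158–34.8) CPM in ctrl, 24.8 (10.7–48.8) in ent-1KO, 14.8 (4.82–34.6) in ent-2KO and 82.2 (66.1–101) in ent-1KO;ent-2KD. ssp-33 was higher, at 1.63 (0.39 to 3.70), on 4 UMIs in ctrl and 95 in ent-1KO;ent-2KD. ssp-19, an MSP-domain gene on chromosome I, was higher at 1.10 (0.62 to 1.67), with 212 (147–297) CPM in ctrl, 226 (177–284) in ent-1KO, 115.7 (82.3–158) in ent-2KO and 463 (424–505) in ent-1KO;ent-2KD. In ent-1KO the lowest ratios were those of nspd-9 (−0.57, −1.15 to 0.03) and smz-2 (−0.56, −1.15 to 0.05) and the highest those of ssp-34 (0.67, 0.14 to 1.26) and msp-51 (0.40, 0.11 to 0.71). In ent-2KO, ssp-19 (−0.88, −1.58 to −0.17) and nspd-9 (−0.45, −1.01 to 0.14) were lowest, and msp-51 (0.92, 0.65 to 1.22) and ssp-34 (0.89, 0.38 to 1.47) highest. None of these 8 ratios reached 2-fold.

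By family the ratios of ent-1KO;ent-2KD to ctrl went both ways. The msp sum was at −0.31 (−0.37 to −0.25), nspd at −0.23 (−0.30 to −0.17), ssp at −0.21 (−0.32 to −0.10) and msd at −0.29 (−0.54 to −0.03), while ssq was at 0.38 (0.26 to 0.50) and smz at 0.27 (−0.04 to 0.60). Of the 31 msp genes tested 24 had a ratio below 0, and all 4 ssq genes had one above 0. In ent-1KO the ssq sum was the one with an interval above 0, at 0.32 (0.18 to 0.45). In ent-2KO the msp sum (0.18, 0.12 to 0.24), the nspd sum (0.21, 0.13 to 0.28) and the ssq sum (0.21, 0.07 to 0.34) were slightly higher.

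The ratio of ent-1KO;ent-2KD over all sperm-like nuclei lay between opposite ratios in the sub-groups, whose part in the whole also differed. The deep sub-group was 36.1 percent of sperm-like nuclei in ctrl and 55.4 percent in ent-1KO;ent-2KD. What each of these adds to the ratio of the whole was not tested. In the shallow sub-group the summed ratio was 0.64 (0.53 to 0.75), and 18 of 45 members were called higher and 0 lower, beside 14.2% and 9.74% of all 1786 genes. In the deep sub-group it was −0.50 (−0.54 to −0.46), with 1 of 57 members higher and 8 lower, beside 11.9% and 7.53% of all 3960 genes. The member higher in the deep sub-group was msp-63, which had no UMI there in ctrl. The msp sum was at 0.55 (0.41 to 0.69) in the shallow and −0.65 (−0.71 to −0.59) in the deep sub-group, and nspd at 0.84 (0.59 to 1.10) and −0.55 (−0.62 to −0.48). In ent-1KO the summed ratio was 0.29 (0.18 to 0.40) and 0.33 (0.28 to 0.37). Both sub-groups lay above the 0.01 of the whole, in which the deep sub-group has a smaller part than in ctrl. The median member ratio in ent-1KO was 0.21 in the shallow and 0.23 in the deep sub-group. Over all genes tested the medians were −0.05 and 0.18. In ent-2KO the summed ratio was 0.59 (0.48 to 0.71) and 0.04 (0.00 to 0.09). The ctrl values rest on 46 shallow nuclei with 801 member UMIs and 26 deep nuclei with 5823.

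**Figure D5:**
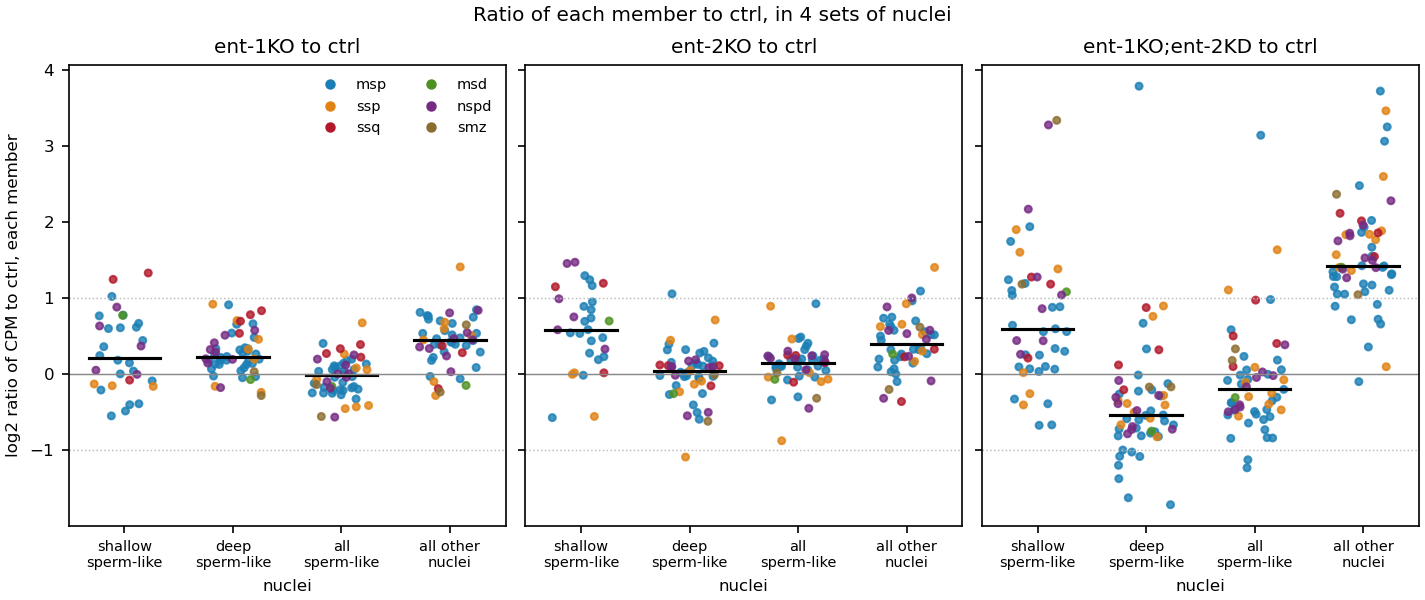
Log2 ratio of CPM to ctrl of each member with at least 50 UMIs over both libraries, for ent-1KO (left), ent-2KO (middle) and ent-1KO;ent-2KD (right), in the shallow, the deep and all sperm-like nuclei and in all other nuclei. Each point is a member coloured by family, the black bar is the median, and dotted lines mark 2-fold. In ent-1KO;ent-2KD the median is 0.59 in shallow and −0.54 in deep sperm-like nuclei, and 1.42 in all other nuclei.

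Outside the sperm-like nuclei the sum of all members was higher in each mutant library than in ctrl, and most single members were called higher in ent-1KO;ent-2KD alone. The summed ratio was 0.41 (0.35 to 0.47) in ent-1KO, 0.45 (0.39 to 0.51) in ent-2KO and 1.45 (1.40 to 1.50) in ent-1KO;ent-2KD. In ent-1KO 1 of 50 members was called higher, ssp-19, and 0 lower, beside 1.28% and 2.52% of all 14400 genes. Of those tested in ent-1KO 7 had a ratio below 0, and the intervals of the ssq (0.14, −0.08 to 0.36), msd (−0.04, −0.42 to 0.35) and smz sums (0.06, −0.40 to 0.54) held 0. In ent-2KO 2 of 50 were higher, msp-53 and ssp-37, and 0 lower, beside 1.58% and 1.17%, and 6 had a ratio below 0, with the intervals of the same 3 sums holding 0. In ent-1KO;ent-2KD 50 of 58 were higher and 0 lower, beside 25.5% and 14.3% of 15170 genes. There the ratio was highest for msp-63 (3.72, 2.58 to 5.51), ssp-19 (3.46, 2.68 to 4.49) and msp-42 (3.25, 2.39 to 4.41), and below 0 only for msp-79 (−0.10, −0.70 to 0.52). The neighbours of msp-63, msp-142 and msp-64, were at 2.48 (2.04 to 2.98) and 2.02 (1.68 to 2.39). By family the ratio was smallest for msp (1.30, 1.23 to 1.36) and largest for ssq (1.82, 1.63 to 2.02). Both the share of sperm-like nuclei and the level of the members outside them were lowest in ctrl and highest in ent-1KO;ent-2KD, with ent-1KO and ent-2KO between. The order of ent-1KO and ent-2KO was not the same in both. Their shares were 1.31 and 1.18 percent and their levels outside 279 and 286 CPM, with overlapping intervals. Whether free RNA of sperm-like nuclei accounts for the level elsewhere was not tested.

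The other genes of sperm were read beside the families. The 32 sperm markers outside the families, among them spe-11 and the sperm chromatin genes spch-1 and spch-3, in sperm-like nuclei summed to 7414 (6999–7848) CPM in ctrl, 7721 (7421–8030.1) in ent-1KO, 10003 (9668–10346) in ent-2KO and 9079 (8901–9259) in ent-1KO;ent-2KD. Set against ctrl, their summed log2 ratio in ent-1KO;ent-2KD was 0.29 in all sperm-like nuclei, 1.16 in the shallow and −0.02 in the deep sub-group. For 28 of them with at least 50 UMIs over both libraries, 3 were called higher and 0 lower. Outside sperm-like nuclei these markers summed to 439.6 (430.1–449) CPM in ctrl, 427 (419.6–435) in ent-1KO, 431 (422–439) in ent-2KO and 382 (375–390.1) in ent-1KO;ent-2KD. Much of that sum came from spe-48 and zipt-7.1, which had 197 and 74.3 CPM outside and 92.4 and 35.5 CPM inside. Of 22 markers tested there in ent-1KO;ent-2KD against ctrl, 14 were called higher and 4 lower, beside the 25.5% and 14.3% of all genes. spch-3 was outside at 7.47 CPM in ctrl and 35.2 in ent-1KO;ent-2KD, spch-1 at 5.07 CPM in ctrl and 18.1 in ent-1KO;ent-2KD, and spe-11 at 1.85 CPM in ctrl and 7.91 in ent-1KO;ent-2KD. The 4 called lower were zipt-7.1, spe-6, snf-10 and spe-41. Outside, zipt-7.1 was at 94.4 CPM in ctrl and 31.2 in ent-1KO;ent-2KD, and spe-6 at 47.9 and 19.4 CPM. In the same order snf-10 was at 21.04 and 2.33 CPM, and spe-41 at 13.3 and 6.61 CPM.

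Of 5 genes of sperm fate and spermatocyte transcription, spe-44, a transcription factor of spermatogenesis, had 55.9 CPM in sperm-like and 60.3 CPM in germline-like nuclei over the libraries summed. The RNA-binding genes cpb-1 and fog-1 had 61.6 and 23.5 CPM in sperm-like and 79.8 and 56.8 CPM in germline-like nuclei. The GATA factor gene elt-1 was at 59.5 and 4.22 CPM, and fog-3 had 3 UMIs in sperm-like nuclei. In the sperm-like nuclei elt-1 was at 62.5 CPM in ctrl, 62.0 in ent-1KO, 71.2 in ent-2KO and 54.8 in ent-1KO;ent-2KD. Of the 4 genes with more than 3 UMIs in sperm-like nuclei, elt-1 alone was several-fold higher there than in germline-like nuclei, and it was higher still in embryo-like nuclei, at 162 CPM.

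Genes that receive the MSP signal were read in the classes where the signal acts. The MSP receptor gene vab-1, an Eph receptor, was in germline-like nuclei at 224 CPM in ctrl, 178 in ent-1KO, 195 in ent-2KO and 196 in ent-1KO;ent-2KD, and goa-1, a G protein alpha subunit, at 137 CPM in ctrl, 124 in ent-1KO, 135 in ent-2KO and 151 in ent-1KO;ent-2KD. The gap junction genes inx-22 and inx-14 had 155 CPM in ctrl, 153 in ent-1KO, 154 in ent-2KO and 162 in ent-1KO;ent-2KD, and 147 CPM in ctrl, 155 in ent-1KO, 149 in ent-2KO and 91.2 in ent-1KO;ent-2KD. Of these 4 genes inx-14 alone was lowest in ent-1KO;ent-2KD. In nuclei like those of the gonadal sheath and spermatheca, kin-1, a subunit of protein kinase A, was at 1050.3 CPM in ctrl, 819 in ent-1KO, 1025 in ent-2KO and 1331 in ent-1KO;ent-2KD, and ceh-18, a homeobox gene of the sheath, at 363 CPM in ctrl, 424 in ent-1KO, 347 in ent-2KO and 290.3 in ent-1KO;ent-2KD. The stimulatory G protein gene gsa-1 had 163 CPM in ctrl, 236 in ent-1KO, 217 in ent-2KO and 303 in ent-1KO;ent-2KD and the adenylate cyclase gene acy-4 82.5 CPM in ctrl, 63.5 in ent-1KO, 85.3 in ent-2KO and 93.95 in ent-1KO;ent-2KD. The glutamate receptor gene nmr-1 had 6 UMIs in sperm-like nuclei, 6 in germline-like nuclei and none in those of sheath and spermatheca.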

How the data were processed

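The authors deposited, for each of the 4 libraries, a matrix of raw UMI counts per gene and nucleus, made with Cell Ranger (6.1.2 per the file headers, 6.0 per the submitters' processing notes) on the C. elegans genome. Counts were used as deposited. Barcodes with the highest Scrublet scores (Scanpy 1.11.5) were removed, at 0.8% per 1000 nuclei. Libraries were joined by canonical correlation analysis in Seurat 5.3.0 on 2000 variable genes, without the family members, with 30 dimensions, and clustered at resolution 0.8. Clusters were named from marker lists that hold no family member. UMIs were summed per library and class, and CPM was taken over all UMIs of those nuclei, with no division by length. Named were the members with most UMIs of each family (6 of msp, up to 4 of the others), the 2 lowest and 2 highest ratios of each comparison, up to 3 members with no UMI and the leading genes of the other lists. Further genes were picked after their values were seen. Family members and gene lists were chosen with earlier results of these data known. Alternatives were other resolutions, no integration, doublets kept, members kept, marker rules, pseudocounts and minimums. Scripts were tested on simulated data. The authors' doublet caller and cell annotation were not used here.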

Additional observations from a re-analysis of the deposited data

Results flagged for a closer look

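The summed log2 ratio of all members to ctrl in ent-1KO;ent-2KD was 0.64 (0.53 to 0.75) in the shallow and −0.50 (−0.54 to −0.46) in the deep sub-group of sperm-like nuclei, opposite in sign, and the difference between them was not tested. Barcodes removed as likely doublets enter no comparison above. Among them 130 of ent-1KO;ent-2KD held 10 or more member UMIs, against 7 in ctrl, 9 in ent-1KO and 8 in ent-2KO.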

How the results depend on the processing

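Each condition is 1 library, so no library could be left out and the spread between samples is unknown. No paired analysis was possible because no condition has replicates. Levels of low members rest on few UMIs in ctrl, which has the fewest sperm-like nuclei. A planned look at sequence shared between copies, at proteins and at promoters was not run, since no sequence was used here. Of the values of the comparisons under every alternative, 165 stayed within counting error or within 1.5 times of the count, 67 did not. Except in the sub-groups of ent-1KO;ent-2KD, counts of members called under the alternatives stand below without the share over all genes. They are not read as results about the members. The summed ratio of ent-1KO;ent-2KD in sperm-like nuclei, below 0 as reported, was above 0 in the shallow sub-group and by the first marker rule below, and that of ent-1KO was below 0 by the second. The cause was not tested for any.

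Taking sperm nuclei as those with 3 or more UMIs of any of the 32 sperm markers gave shares of 8.03 (ctrl), 11.4 (ent-1KO), 10.7 (ent-2KO) and 11.6% (ent-1KO;ent-2KD), summed ratios of 0.66 (ent-2KO) and 1.67 (ent-1KO;ent-2KD), and 3 and 55 members higher, with 0 lower in the latter. With the 26 markers at least 8-fold higher in sperm-like nuclei, a rule added after seeing the data, the share was 0.520 (ctrl), 0.958 (ent-1KO) and 4.30% (ent-1KO;ent-2KD), the ratio −0.17 (ent-1KO) and −0.77 (ent-1KO;ent-2KD), with 1 member higher in ent-2KO and 16 lower in ent-1KO;ent-2KD.

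Without integration the share in ent-1KO;ent-2KD was 4.84%, its ratio −0.45 with 5 members lower, and the ratio of ent-2KO 0.073. With doublets kept the ratios were 0.16, 0.23 and −0.35 in ent-1KO, ent-2KO and ent-1KO;ent-2KD, and 1 member was higher in ent-2KO. With members among the clustering genes they were 0.10 in ent-1KO and −0.027 in ent-1KO;ent-2KD, the latter with 5 higher and 1 lower.

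In the shallow sub-group, likewise added, the ratios were 0.29, 0.59 and 0.64. There 3 of 32, 7 of 31 and 18 of 45 members were higher, with 0 lower in the last. In that last comparison 14.2% of all 1786 genes were higher and 9.74% lower. In the deep sub-group the ratios were 0.33, 0.043 and −0.50. Of 53 members in ent-2KO 1 was higher and 1 lower. Of 57 in ent-1KO;ent-2KD 1 was higher and 8 lower, beside 11.9% and 7.53% of all 3960 genes. In sperm-like nuclei of ent-1KO;ent-2KD 1 member was higher with 5 UMIs added and 1 with a minimum of 200 UMIs, and in ent-1KO 2 with a minimum of 10.

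Outside sperm-like nuclei, the 2 marker rules gave ratios of 0.51 and 0.48 in ent-1KO and of 1.10 and 1.12 in ent-1KO;ent-2KD, the first rule 0.36 in ent-2KO. The ent-1KO;ent-2KD ratio was 1.19 without integration and 1.38 with members among the clustering genes, where ent-2KO had 0.38. There 33 members were higher in ent-1KO;ent-2KD by the second rule and 33 with a minimum of 200 UMIs. In ent-1KO 2 were higher with doublets kept, 4 by the first rule, 2 with a minimum of 10 and 0 with 200. In ent-2KO it was 4 with a minimum of 10, and 1 without integration, with doublets kept, with members among the clustering genes, by either marker rule, with 5 UMIs added and with a minimum of 200.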
